A study of Mus musculus with 27 samples.

Results

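Immediate early genes are switched on from existing transcription factors, without new protein synthesis, when growth factors, cytokines or stress reach a cell. The 10 genes described here were chosen by name from the gene tables, as 10 of 55487 gene identifiers: Fos, Fosb, Jun, Junb, Atf3, Egr1, Egr2, Ier2, Ier3 and Dusp1. Their working name was immediate early transcription factors, which fits most but not every one of them, since Dusp1 encodes a MAP kinase phosphatase and Ier3 a regulator of cell survival.

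RNA was sequenced from 3 kinds of primary mouse cell, microglia, macrophages grown from bone marrow (BMDM) and hepatocytes, after 24 h with 10 µM 24(S)-saringosterol (a sterol of plants and algae), 1 µM of a synthetic compound called GW here, or an equal volume of ethanol as vehicle. There were 9 groups with 3 libraries each, 27 in all. The labels spell the synthetic compound GW3596, GW3964 and GW3965, and GW3965 is known as an agonist of the liver X receptors (LXR), nuclear receptors for oxidised sterols. The sources used here name no strain, age or genotype of the mice, and do not say whether the 3 libraries of a group are separate animals or cultures, so p-values measure only the spread between these libraries. Microglia had been shaken off mixed glial cultures, BMDM had been grown out of marrow with M-CSF, and hepatocytes had been plated on collagen. All cells were treated without serum. Microglia and BMDM received M-CSF, insulin, transferrin, selenite and fatty-acid-free albumin during treatment and hepatocytes did not, so that cell type and medium cannot be told apart between hepatocytes and the other cells.

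In the textbook account, activated ERK phosphorylates ternary complex factors, which with serum response factor bind CArG boxes near Egr1, Egr2, Fos and Junb, while CREB acts through cAMP response elements (CRE). The products include the FOS and JUN proteins, which pair to form the factor AP-1, and the zinc finger factors EGR1 and EGR2. DUSP1 removes phosphate from p38, JNK and ERK and so ends the signal, and ATF3 restrains inflammatory genes in macrophages. EGR2 is known as a factor of macrophage identity and lipid handling. These transcripts usually peak within the first hours and decay quickly; here every library was taken at 24 h, so the values are levels at that time and not the size of an early peak.

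The sequences before the start sites are shown because the motifs through which these genes are controlled differ among the members. They come from RefSeq on the build GRCm38.p6. Promoters of 8 of the 10 members were searched. Those of Egr1 and Ier2 were not searched, so their motifs are not described here. The 250 bases before each start were searched on both strands for TGACGTCA (CRE), TGANTCA (AP-1), GCGNGGGCG (EGR site), TGATGNAA (the element shared by ATF4 and C/EBP), TATAAA and the CArG box, and a match is a description of letters, not a bound site. Capitals mark the match, all sequences run 5′ to 3′ on the strand of the gene, and the full window is printed for Fos (chr12:85473640-85473889, plus strand, outside the annotated gene).
Fos: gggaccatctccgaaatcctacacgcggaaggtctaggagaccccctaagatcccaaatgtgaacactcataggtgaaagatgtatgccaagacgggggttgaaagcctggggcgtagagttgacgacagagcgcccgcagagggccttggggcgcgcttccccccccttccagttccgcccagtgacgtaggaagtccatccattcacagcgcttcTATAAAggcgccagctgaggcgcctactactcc
Dusp1, CRE: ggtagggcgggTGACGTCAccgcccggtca
Egr2, CArG box of 3 of its starts: gttcctcagtCCATATATGGgcagcgacgt
Egr2, CArG box of another start: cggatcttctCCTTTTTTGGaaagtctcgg
Atf3, ATF4 and C/EBP element: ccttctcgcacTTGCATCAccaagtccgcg
Fosb, EGR site: tgacgcaagcGCGGGGGCGggtcccggagg

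The Fos TATAAA lay 33 to 28 bases before the start, a motif held by 12.4% of 32851 promoters of the same length. Dusp1 held a full CRE 143 to 136 bases before its start (chr17:26508597-26508626, minus strand), as did 1.55% of promoters. Of 5 annotated Egr2 starts, 4 had a CArG box in the window, and the 2 different boxes are printed (chr10:67537787-67537816 and chr10:67537484-67537513, plus strand); 1.47% of promoters held one. The Atf3 element (chr1:191183425-191183454, minus strand) occurred in 3.45% of promoters and the EGR site of Fosb (chr7:19310076-19310105, minus strand) in 4.7%. In the GENCODE M21 annotation the printed Dusp1, Egr2 and Atf3 stretches lie in an intron of a longer transcript of the same gene, and that of Fosb lies outside the gene. The AP-1 motif, found in 6.75% of promoters, was in none of the members' windows searched, and Jun, Junb and Ier3 held none of the motifs searched. Only these exact letters within 250 bases were searched, so a missing match does not show that a gene lacks such a site.

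The counts of Jun and Dusp1 share exonic bases with genes on the opposite strand, 232 bases with Junos and 11 bases with Ergic1, and no source used here gives the strand setting of the counting. In the files the members lie at chromosome 12, 85473890 to 85477273 (Fos); chromosome 7, 19302696 to 19310051 (Fosb); chromosome 4, 95049034 to 95052222 (Jun); and chromosome 8, 84976910 to 84978718 (Junb) and 84661331 to 84662854 (Ier2). Atf3 lies at chromosome 1, 191170296 to 191218039, Egr1 at chromosome 18, 34859823 to 34864984, and Egr2 at chromosome 10, 67535475 to 67542188. Ier3 and Dusp1 lie at chromosome 17, 35821684 to 35822923 and 26505590 to 26562128. Values are over the exons of each gene on the build GRCm38, and those of Junb and Ier2 have a different span in GENCODE M21.

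The libraries held 30295862 to 41040268 counts in genes, and 3 counts, the most that a count of 0 allows, were 0.073 to 0.099 CPM, a limit that covers counting error only. Macrophage markers summed to 39255 to 41148 CPM in vehicle-treated microglia and to 343 to 373 CPM in vehicle-treated hepatocytes, where nearly all of it was Cd68 (347 ± 17.1 CPM, SD, n = 3) and Csf1r stood at 0.692 CPM. The microglia markers Tmem119 and P2ry12 were at 4.21 and 11.4 CPM in vehicle-treated microglia and Siglech was at 0, while 6 of 7 tested microglia markers were higher there than in BMDM. Of the bile duct markers, vehicle-treated hepatocyte cultures held Sox9 at 174 CPM, but Krt19 at 8.48, Epcam at 2 and Krt7 at 0.043 CPM. In BMDM given saringosterol, replicate 3 stood apart from the others of its group (chi-square per degree of freedom 36 and 37.4, against 3.77 to 12.6 for every other pair of replicates), and results that rest on it are given with and without it. As these are bulk samples, fewer cells of a type and less RNA per cell cannot be told apart.

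The members fell into a hepatocyte-high and a macrophage-high set in vehicle-treated cells. Levels per gene length (TPM) of Jun, Junb, Egr1, Ier2, Ier3, Dusp1 and Fosb were highest in hepatocytes, and those of Fos, Egr2 and Atf3 in microglia and BMDM. Every one of the 10 was called between hepatocytes and microglia and between hepatocytes and BMDM, 7 higher and 3 lower in each, where called means an adjusted p under 0.05 over all genes tested by edgeR's quasi-likelihood test. These cell types differ at most genes: 73.5% of 18979 genes were called in the first comparison (36.2% higher, 37.3% lower) and 75.2% in the second (37.5% higher, 37.7% lower), so a share this high is near what all genes showed.

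Egr2 had the widest range. Its TPM was 219, 222 and 208 in the 3 microglia libraries, 157, 187 and 185 in BMDM and 0.404, 0.575 and 0.38 in hepatocytes, where 17 to 26 counts were behind each value. It was 590-fold lower in hepatocytes than in microglia (log2 difference -9.21 ± 0.20, SE; edgeR adjusted p = 7.2e-21) and 517-fold lower than in BMDM. The hepatocyte libraries lay far below every macrophage library, beside macrophage markers other than Cd68 at or below 4.65 CPM there.

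Egr1, which encodes another factor of the same family, ran the other way. Its TPM was 164, 156 and 157 in hepatocytes, 15.4, 15.2 and 15.1 in microglia and 6.16, 5.0 and 4.94 in BMDM, and no library of one cell type overlapped another. The difference was 8.42-fold between hepatocytes and microglia (log2 3.07 ± 0.08, edgeR adjusted p = 6.6e-26) and 22.2-fold between hepatocytes and BMDM (4.47 ± 0.09, 2.5e-29). Between the macrophage types Egr1 was 2.63-fold higher in microglia than in BMDM (log2 1.4 ± 0.09, edgeR adjusted p = 3e-14).

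The AP-1 genes were split. Fos TPM was 88.7 ± 4.80 (SD, n = 3) in microglia, 85.8 ± 2.93 in BMDM and 18.6 ± 1.63 in hepatocytes, whereas its main partner Jun was at 199 ± 1.94, 164 ± 3.04 and 434 ± 6.39 and Junb at 396 ± 11.9, 296 ± 15 and 665 ± 42.8. Fosb, the close relative of Fos, was nearly silent in the macrophage types, with 8 to 15 counts in each vehicle library of microglia and BMDM (0.0921 to 0.188 TPM), and reached 0.923 to 1.10 TPM in hepatocytes. Atf3, which can pair with JUN proteins, was first of the 10 in every microglia and BMDM group, at 952 ± 29.1 and 984 ± 50.3 TPM under vehicle against 262 ± 6.96 TPM in hepatocytes. Thus the Jun-type genes were higher in hepatocytes than in both macrophage types, and Fos and Atf3 were lower there.

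Ier2, a nuclear regulator, stood at 57.8 ± 2.57 TPM in microglia, 47.6 ± 1.36 in BMDM and 429 ± 21.5 in hepatocytes. Ier3 stood at 26.3 ± 0.667, 24.1 ± 5.12 and 252 ± 7.02 TPM, and the libraries of microglia and BMDM overlapped. Dusp1 was at 88.6 ± 4.73, 63.9 ± 2.20 and 247 ± 7.39 TPM in turn. In vehicle-treated hepatocytes the order was Junb, Jun, Ier2, Atf3, Ier3, Dusp1, Egr1, Fos, Fosb and Egr2, with the libraries of Jun and Ier2, of Atf3 and Ier3, and of Ier3 and Dusp1 overlapping.

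Microglia differed from BMDM at 5 of the 10 members, all higher in microglia (46.5% of all genes called, 24.6% higher and 22% lower): Egr1 above, and by smaller steps Jun (log2 0.18 ± 0.05), Junb (0.31 ± 0.06), Ier2 (0.18 ± 0.07, edgeR adjusted p = 0.039) and Dusp1 (0.37 ± 0.09). The Ier2 call ended with no filter on low counts (0.15, adjusted p = 0.12) and without BMDM vehicle replicate 1 (0.14, 0.15), BMDM vehicle replicate 2 (0.18, 0.07) or microglia vehicle replicate 3 (0.13, 0.19). With a replicate block the calls of Ier2 (0.14, adjusted p = 0.27) and Dusp1 (0.24, adjusted p = 0.12) also ended. Fos, Fosb, Egr2, Ier3 and Atf3 did not pass. For Atf3 the difference was -0.15 with a 95% interval of -0.28 to -0.02 (adjusted p = 0.052), and it passed without BMDM vehicle replicate 1 (-0.20, adjusted p = 0.018) and with no filter on low counts (-0.18, adjusted p = 0.0047).

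**Figure D1:**
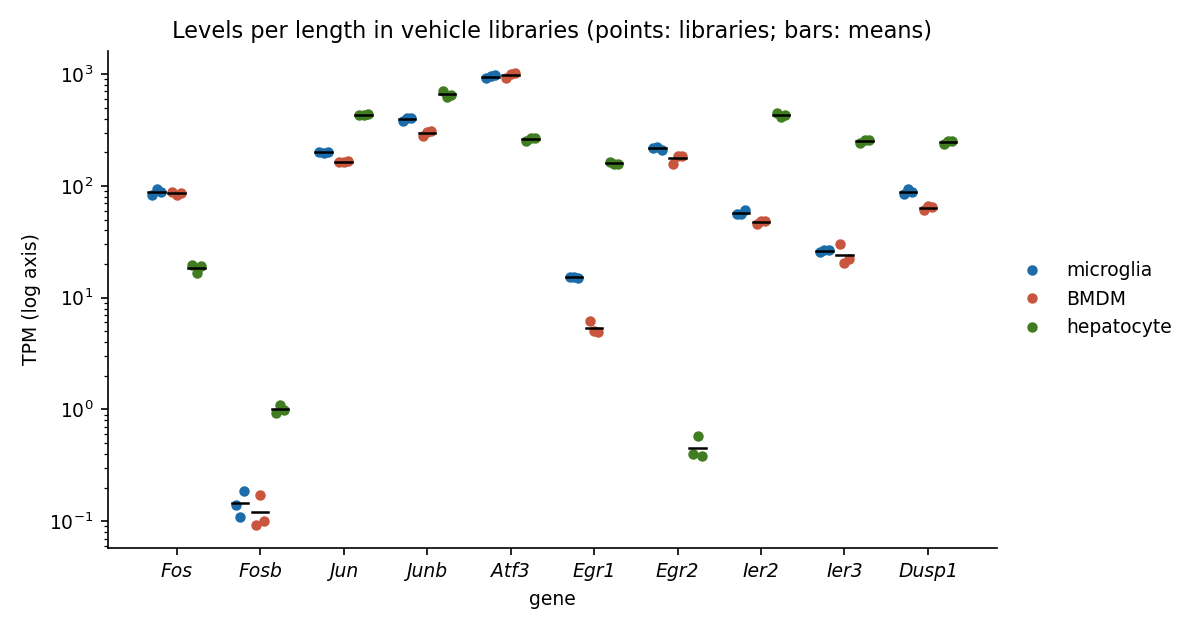
Levels of the 10 members in the vehicle libraries of microglia, BMDM and hepatocytes (y axis: TPM, log axis; points: libraries; black bars: means of 3). Egr2 lies near 200 TPM in both macrophage types and at 0.38 to 0.575 TPM in hepatocytes, whereas Egr1 is highest in hepatocytes.

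In microglia, GW lowered most of the members and raised Egr1. Of the 10, 9 were called, 8 lower and 1 higher, where 28.7% of 16065 genes were called (15.2% lower, 13.4% higher). The median log2 change of the 10 was -0.45, beside -0.01 over all genes tested. Fosb, with 9 to 15 counts per library, did not pass (0.26, 95% interval -0.82 to 1.34).

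With GW the phosphatase gene Dusp1 had the largest change of the 10, whereas with saringosterol Fos did. For Dusp1 the vehicle libraries held 92.2, 104 and 99.4 CPM (counts scaled to a common library total), the saringosterol libraries 79.1, 80.2 and 75.6 CPM and the GW libraries 38.0, 34.7 and 39.3 CPM. The 3 groups did not overlap, with GW far below the other two. The fall was 2.63-fold with GW (log2 -1.40 ± 0.05, edgeR adjusted p = 1.3e-18) and 1.26-fold with saringosterol (-0.33 ± 0.05, 3.4e-05).

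Fos was at 65.4, 73.6 and 70.8 CPM under vehicle, 48.2, 49.9 and 50 CPM with saringosterol and 44.4, 46.2 and 44.4 CPM with GW. All treated libraries lay below all vehicle libraries. Fos fell by 0.64 ± 0.05 on the log2 scale with GW (edgeR adjusted p = 6.8e-11) and by 0.50 ± 0.05 with saringosterol (4.4e-08); the doses of the compounds differ, 1 µM of GW and 10 µM of saringosterol. The direct difference between the treatments was 0.13 (95% interval 0.02 to 0.25, adjusted p = 0.071).

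The partner genes Jun and Junb followed with GW. Jun stood at 213, 211 and 215 CPM under vehicle and 168, 165 and 166 CPM with GW (log2 -0.36 ± 0.04, edgeR adjusted p = 4.7e-09), and Junb at 229.8, 243 and 247 against 166, 164 and 168 CPM (-0.53 ± 0.04, 4.7e-12). With saringosterol Junb was lower by a small step, at 212, 219 and 206 CPM (-0.18 ± 0.04, adjusted p = 0.0025), and Jun did not pass (-0.07, 95% interval -0.15 to 0.00). The Junb libraries of the saringosterol and vehicle groups did not overlap.

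Egr1 moved against the rest. Its libraries held 22.9, 22.9 and 22.8 CPM under vehicle, 28.2, 29.2 and 28.0 CPM with saringosterol and 34.4, 32.0 and 31.8 CPM with GW, 3 groups without overlap. The rise was 1.25-fold with saringosterol (log2 0.32 ± 0.07, edgeR adjusted p = 0.0012) and 1.43-fold with GW (0.52 ± 0.07, 2.5e-07). Egr2 fell in the same cells, from 247, 253 and 239 CPM to 174, 168 and 159 CPM with GW (-0.56 ± 0.04, 7e-12). With saringosterol Egr2 was at 229, 225 and 210.2 CPM (-0.15 ± 0.04, adjusted p = 0.014), a call that ended without saringosterol replicate 3 (-0.12, adjusted p = 0.07) or vehicle replicate 2 (-0.14, 0.095).

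Ier3 fell with GW from 9.60, 10.1 and 10.2 CPM to 4.99, 6.32 and 5.96 CPM (log2 -0.79 ± 0.12, edgeR adjusted p = 3.3e-06) and Ier2 from 29.5 ± 1.54 to 23.6 ± 1.41 CPM (-0.32 ± 0.07, 0.00077). Neither passed with saringosterol, though all 3 libraries of each lay below the vehicle libraries (Ier2 -0.16, adjusted p = 0.18; Ier3 -0.17, adjusted p = 0.4). Atf3 changed least: 658, 696 and 709 CPM under vehicle, 706, 695 and 664 with saringosterol and 617, 640.0 and 641 with GW. Its GW call (-0.12 ± 0.04, adjusted p = 0.012) ended without GW replicate 1 (-0.10, 0.086), vehicle replicate 2 (-0.11, 0.059) or vehicle replicate 3 (-0.09, 0.11).

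With saringosterol 5 of the 10 members were called in microglia (Egr1 higher; Fos, Junb, Egr2 and Dusp1 lower), where 10.8% of all genes were called, 4.19% higher and 6.66% lower. The 2 comparisons share the vehicle libraries. Set directly against GW, at doses that differ, saringosterol left 6 members higher (Jun, Junb, Egr2, Ier3, Atf3 and Dusp1) and Egr1 lower, with 25.5% of genes called (12.5% higher, 12.9% lower). Dusp1 was 2.10-fold higher (log2 1.07 ± 0.06, edgeR adjusted p = 1.4e-15). The Egr1 difference of -0.20 (adjusted p = 0.023) ended without GW replicate 1 (-0.16, 0.13), saringosterol replicate 1 (-0.19, 0.067) or saringosterol replicate 3 (-0.19, 0.058), and the Atf3 difference of 0.12 (0.013) without GW replicate 1 (0.10, 0.089), saringosterol replicate 1 (0.10, 0.075) or saringosterol replicate 2 (0.11, 0.052).

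Marker sums of other brain cells differed by treatment in the same libraries. The 7 astrocyte markers summed to 46.6 to 49.7 CPM under vehicle, 29.1 to 36.1 with saringosterol and 63.9 to 67.9 with GW, with Aldh1l1 the largest (30.5, 20.4 and 36.5 CPM) and the defining gene Gfap at 0.644, 0.377 and 0.557 CPM. The 7 oligodendrocyte lineage markers summed to 78.3 to 84.7, 69.0 to 74.8 and 90.4 to 91.0 CPM, most of it Mbp (58.3, 56.2 and 62.3 CPM). Olig1 was at 9.68, 6.33 and 11.1 CPM, Olig2 at 4.99, 3.32 and 6.75, and Pdgfra at 5.61, 2.97 and 6.24. Cspg4 was at 2.59, 2.3 and 2.6 CPM, and the astrocyte marker Slc1a3 at 6.73, 6.3 and 8.23. BMDM, which come from marrow, had Aldh1l1 at 19.7 and Mbp at 80.4 CPM under vehicle, and their astrocyte marker sums were 37.2 to 43.5, 15.7 to 21.5 and 47.9 to 50.2 CPM, with Gfap and Aqp4 at 0 under vehicle. Other markers stood far lower in vehicle-treated BMDM than in microglia. Olig1 was at 0.959, Pdgfra at 0.0829, Olig2 at 0.00987, Cspg4 at 0.0482 and Slc1a3 at 0.327 CPM. Aldoc went the other way, at 20.8 CPM in BMDM and 8.65 CPM in microglia. No marker of either list was at 0 in all microglia libraries of a group. In microglia the neuron markers summed to 4.24 to 5.52, 3.09 to 3.63 and 4.29 to 5.20 CPM. Endothelial markers summed to 16.8 to 21, 22.3 to 24.4 and 21.8 to 25.5 CPM, and went both ways. Stab2 was at 4.34, 11.9 and 17.6 CPM, Kdr at 14, 11.1 and 5.2 CPM, and Tek at 0 under vehicle. The part of these markers in the changes of the 10 members was not tested.

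**Figure D2:**
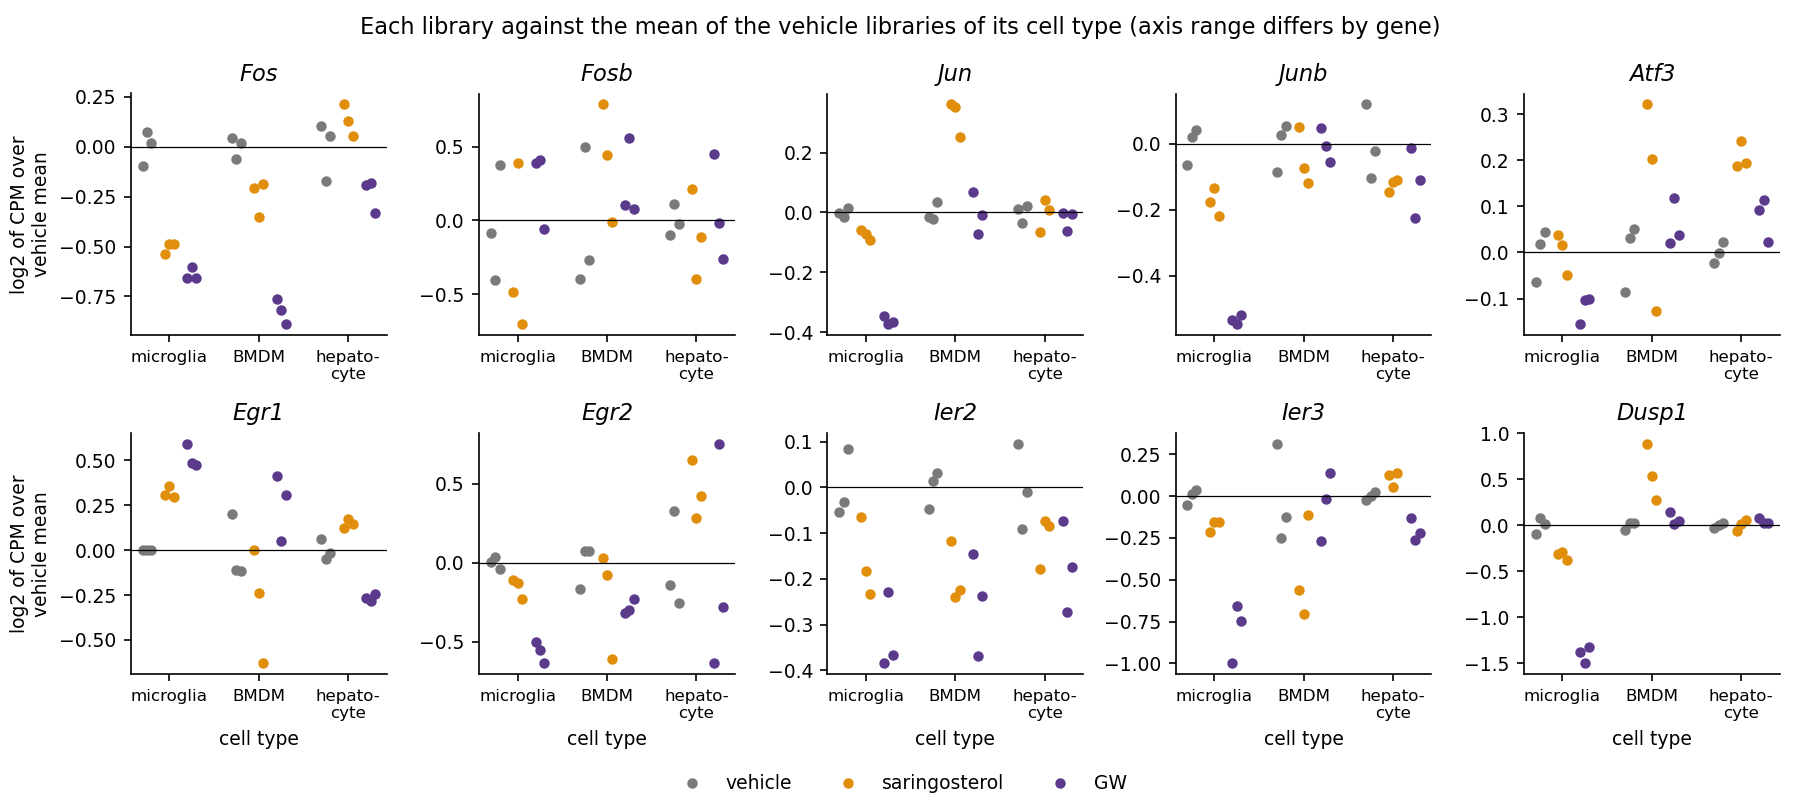
Every library of the 10 members against the mean of the vehicle libraries of its cell type (y axis: log2 of the CPM ratio, with its own range for each gene; x axis: cell type; grey, orange and purple points: vehicle, saringosterol and GW libraries, 3 each). In microglia the GW points of Dusp1, Ier3, Fos, Egr2, Junb and Jun lie below all vehicle points and those of Egr1 above them, and the saringosterol points of Dusp1 lie below vehicle in microglia and above it in BMDM.

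In BMDM, as in microglia, Fos was called lower with both compounds, but fewer members were called. With GW 1 of the 10 members was called, Fos, where 10.4% of 15416 genes were called (4.76% lower, 5.66% higher). With saringosterol 3 were called, Jun and Dusp1 higher and Fos lower, where 10.7% were called (5.53% higher, 5.12% lower). A share of 1 in 10 is near the background of that comparison. Without saringosterol replicate 3 the saringosterol count was 5, with Atf3 also higher and Ier3 also lower.

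Fos stood at 73.9, 68.7 and 72.5 CPM under vehicle, 62.1, 56.2 and 63.0 with saringosterol and 42.3, 40.7 and 38.7 with GW. The 3 groups did not overlap. It fell by 0.82 ± 0.07 on the log2 scale with GW (1.77-fold, edgeR adjusted p = 6.3e-08) and by 0.25 ± 0.07 with saringosterol (adjusted p = 0.02). The saringosterol call ended without saringosterol replicate 2 (-0.19, adjusted p = 0.12), vehicle replicate 1 (-0.22, 0.099) or vehicle replicate 3 (-0.23, 0.054).

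Dusp1, lower in microglia, was higher in saringosterol-treated BMDM. Its libraries held 72.2, 76.7 and 76.4 CPM under vehicle, 139, 109 and 90.8 CPM with saringosterol and 83.0, 75.8 and 77.3 CPM with GW. All saringosterol libraries lay above all others, with a wide spread among them. The rise was 1.5-fold (log2 0.59 ± 0.13, edgeR adjusted p = 0.025) and the call ended without saringosterol replicate 2 (0.62, adjusted p = 0.053) or without vehicle replicate 1 (0.57, 0.1), 2 (0.60, 0.076) or 3 (0.60, 0.067), but not without saringosterol replicate 3. With GW the change was 0.07 (95% interval -0.23 to 0.37).

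Jun rose beside it, from 184, 183 and 190.4 CPM to 238, 237 and 221 CPM with saringosterol (log2 0.32 ± 0.06, edgeR adjusted p = 0.00084), and stayed called in each of the 11 alternatives run. With GW Jun stood at 195, 177 and 185 CPM, overlapping the vehicle libraries (-0.00, 95% interval -0.12 to 0.11). Junb was at 190.4 ± 9.64, 185 ± 11.3 and 189.9 ± 6.80 CPM in vehicle, saringosterol and GW, and neither treatment passed. Ier2 lay below every vehicle library with both compounds, at 25.8 ± 0.736, 22.5 ± 1.06 and 21.7 ± 1.67 CPM, and passed with neither (-0.19, adjusted p = 0.15, and -0.25, adjusted p = 0.064). In 1 fit of all 27 libraries Ier2 did pass with GW (-0.23, adjusted p = 0.029).

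For other members the calls changed when saringosterol replicate 3 was left out. Atf3 was at 708, 769 and 779 CPM under vehicle and at 939.7, 866 and 689 CPM with saringosterol, the last being replicate 3 (log2 0.14, adjusted p = 0.36); without that library the difference was 0.26 (adjusted p = 0.0034). Egr2 was at 189, 224 and 224 CPM under vehicle, 217, 201 and 139.6 with saringosterol and 171, 173 and 181 with GW, and passed in neither comparison with vehicle; without saringosterol replicate 3 it was 0.25 higher with saringosterol than with GW (adjusted p = 0.016), against 0.09 (adjusted p = 0.82) with it. Ier3 was at 12, 8.13 and 8.90 CPM under vehicle and 6.57, 5.94 and 8.95 with saringosterol (-0.44, adjusted p = 0.12), and without replicate 3 the difference was -0.64 (adjusted p = 0.013). With that library kept, Ier3 also passed with no filter on low counts (-0.43, adjusted p = 0.036) and in 1 fit of all 27 libraries (-0.42, adjusted p = 0.023). Egr1 stood at 9.81, 7.93 and 7.89 CPM under vehicle, 8.55, 7.24 and 5.52 with saringosterol and 11.4, 8.84 and 10.6 with GW, overlapping vehicle in both cases.

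Set directly against GW, saringosterol left Fos, Jun and Dusp1 higher and Egr1 lower in BMDM (9.33% of genes called, 4.57% higher and 4.75% lower). Fos differed by 0.57 ± 0.07 on the log2 scale (edgeR adjusted p = 1.3e-05) and Jun by 0.32 ± 0.06 (0.00066). The Dusp1 difference of 0.52 (adjusted p = 0.043) was 0.34 without saringosterol replicate 1 and was lost without saringosterol replicate 2 (0.54, 0.086) or GW replicate 1 (0.56, 0.096), 2 (0.49, 0.13) or 3 (0.50, 0.15). The Egr1 difference of -0.53 (0.037) was lost without saringosterol replicate 2 (-0.55, 0.084), saringosterol replicate 3 (-0.39, 0.13), GW replicate 1 (-0.45, 0.16) or GW replicate 3 (-0.51, 0.13). Without saringosterol replicate 3, Atf3 (0.20, adjusted p = 0.031) and Ier3 (-0.60, adjusted p = 0.022) also passed between the treatments, and Ier3 did so in 1 fit of all 27 libraries with it (-0.40, 0.036).

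Markers of several cell types differed by treatment in BMDM. The 6 neutrophil markers, which mark another myeloid lineage of marrow, summed to 41.3 to 52.9 CPM under vehicle, 31.9 to 40.5 with saringosterol and 26.9 to 28.5 with GW. The 5 endothelial markers summed to 29.4 to 30.9, 50.7 to 59.4 and 86.1 to 88.1 CPM, nearly all of it Stab2 (29.2, 53.2 and 86.0 CPM), with Cdh5 and Tek at 0 under vehicle. The fibroblast and stellate cell markers summed to 3.73 to 4.70, 2.02 to 2.24 and 1.95 to 2.98 CPM. The macrophage markers themselves summed to 33966 to 35813, 27678 to 29660 and 32767 to 34600 CPM, with the lysozyme gene Lyz2 at 21411, 15922 and 21868 CPM. The part of these markers in the BMDM values was not tested.

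Few members were called in hepatocytes. With GW, Egr1 and Ier3 were lower, 2 of 10 members where 1.11% of 16098 genes were called (0.385% lower, 0.721% higher); with saringosterol Atf3 alone was called, higher, where 1.91% were called (0.888% higher, 1.02% lower). Changes of the called members were 1.15-fold to 1.2-fold.

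Egr1 stood at 266, 246 and 252 CPM under vehicle, 277, 287 and 282 with saringosterol and 211, 209 and 215 with GW. The 3 groups did not overlap, with GW lowest and saringosterol highest. It fell by 0.26 ± 0.04 on the log2 scale with GW (edgeR adjusted p = 0.00038) and with saringosterol stood 0.15 above vehicle (95% interval 0.06 to 0.24, adjusted p = 0.076; by DESeq2 0.15, adjusted p = 0.023). Egr1 was thus 1.33-fold higher with saringosterol than with GW (0.41 ± 0.04, 1.5e-07), at doses that differ, where 1.96% of genes were called (0.714% higher, 1.25% lower).

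Ier3 showed the same order, with 100.1, 102 and 103 CPM under vehicle, 111, 106 and 112 with saringosterol and 93.0, 84.9 and 87.5 with GW. Its fall with GW (log2 -0.20 ± 0.05, edgeR adjusted p = 0.045) ended without GW replicate 2 (-0.17, 0.27) or 3 (-0.19, 0.18) and without vehicle replicate 1 (-0.21, 0.067), 2 (-0.20, 0.07) or 3 (-0.19, 0.25), whereas the difference between saringosterol and GW was 0.31 ± 0.05 (0.0003). Fos was at 15.6 ± 1.56, 17.1 ± 0.934 and 13.3 ± 0.765 CPM in vehicle, saringosterol and GW. It was called between the treatments (0.36 ± 0.10, adjusted p = 0.045), a call that ended when any of the 6 libraries compared was left out (0.31 to 0.41, adjusted p 0.056 to 0.26). Atf3 rose from 198, 201 and 204 CPM to 229, 238 and 230.3 CPM with saringosterol (0.21 ± 0.04, adjusted p = 0.0092), without overlap, and the call ended without saringosterol replicate 2 (0.19, 0.1) or vehicle replicate 3 (0.22, 0.053).

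Dusp1 and Jun, which moved in the macrophage types, stayed close to vehicle in hepatocytes. Dusp1 was at 286, 293 and 298 CPM under vehicle, 280.2, 296 and 303 with saringosterol and 308, 297 and 298 with GW, with 95% intervals of -0.08 to 0.09 and -0.05 to 0.13 on the log2 scale. Jun intervals were -0.09 to 0.08 and -0.11 to 0.06. Junb stood at 429.6 ± 33.9, 394 ± 5.34 and 397 ± 28.9 CPM and Ier2 at 233 ± 15.1, 216 ± 8.69 and 207 ± 14.3 CPM in vehicle, saringosterol and GW, and none of these differences passed. Ier2 with GW did pass with a replicate block (-0.17, adjusted p = 0.046) and without vehicle replicate 2 (-0.21, adjusted p = 0.038). The 4 bile duct markers summed to 180.5 to 187, 174 to 192 and 159 to 164 CPM in the same order. Most of it was Sox9 (174, 171 and 149 CPM), and the part of these markers in the hepatocyte values was not tested. Egr2, with 14 to 30 counts per library, gave an interval too wide to show a change of the size seen in microglia (with GW, -0.82 to 0.91). Fosb, with 61 to 121 counts per library, passed with neither compound.

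**Figure D3:**
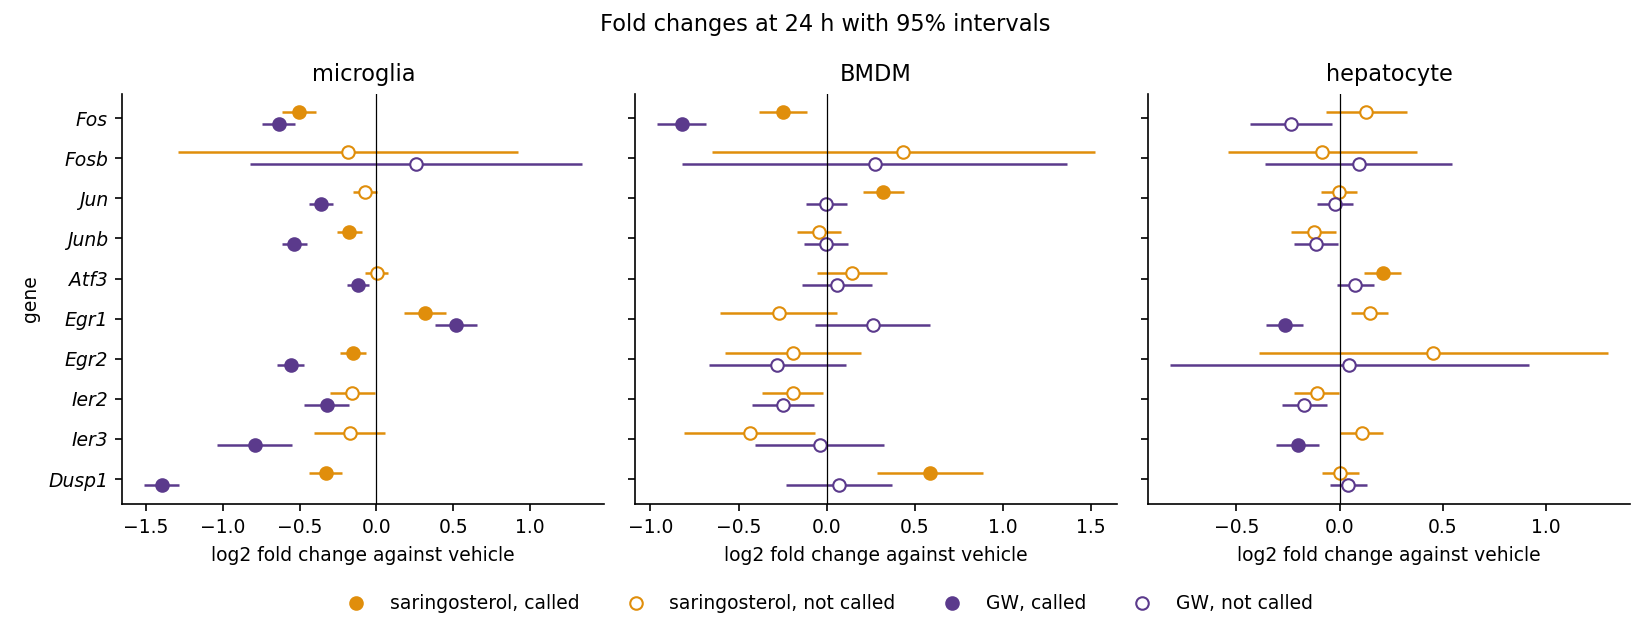
Log2 fold changes of the 10 members against vehicle at 24 h in each cell type (points: edgeR estimates from 3 libraries against 3; lines: 95% intervals; filled points: called; open points: not called). With GW 9 members were called in microglia, 1 in BMDM and 2 in hepatocytes, where 28.7%, 10.4% and 1.11% of all genes were called.

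Whether the responses differed between cell types was tested as a difference of differences over all 27 libraries. With GW the response of microglia was lower than that of BMDM for Dusp1 (log2 -1.47 ± 0.12, edgeR adjusted p = 8e-09), Ier3, Junb and Jun (9.71% of 18979 genes called, 5.28% lower and 4.43% higher), and lower than that of hepatocytes for the same 4 and Fos, with Egr1 higher (8.69% called, 3.64% lower and 5.05% higher). The Egr1 responses, 0.52 in microglia and -0.26 in hepatocytes in the fits of each cell type, differed by 0.80 ± 0.11 (5.1e-06), although in the fit of all 27 libraries that gave this difference the value in hepatocytes did not pass (-0.28, adjusted p = 0.12). The Fos response to GW was 0.56 ± 0.10 lower in BMDM than in hepatocytes (0.00038), with Egr1 higher (4.74% called, 1.6% lower and 3.14% higher). Between microglia and BMDM the Fos responses to GW differed by 0.18 with a 95% interval of -0.01 to 0.37 (adjusted p = 0.25).

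With saringosterol the responses of microglia and BMDM differed for 3 members, Dusp1 (-0.92 ± 0.12, edgeR adjusted p = 0.00011), Jun (-0.40 ± 0.06) and Egr1 (0.59 ± 0.13), where 2.01% of genes were called (1.24% lower, 0.769% higher). Without BMDM saringosterol replicate 3 the Atf3 responses also differed (-0.26, adjusted p = 0.035). Dusp1 moved in opposite directions: every saringosterol library was below every vehicle library in microglia and above it in BMDM. Against hepatocytes, Fos was the member whose response differed in microglia (-0.59 ± 0.10, adjusted p = 0.00051; 1.18% of genes called, 0.274% lower and 0.906% higher), and 5 members differed in BMDM, Jun and Dusp1 higher and Fos, Egr1 and Ier3 lower (10.1% called, 6.98% higher and 3.13% lower). Without BMDM saringosterol replicate 3 that of Egr1 did not pass (-0.23, adjusted p = 0.22).

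Across the 27 libraries, with log2 CPM centred on the mean of each cell type, the members most alike were Jun and Dusp1 (Pearson r = 0.90), Junb and Dusp1 (0.81), Junb and Ier2 (0.76) and Fos and Ier2 (0.71). Egr1 ran against Jun (-0.56), Dusp1 (-0.53) and Fos (-0.42). These values hold the treatment effects: with each group centred on its own mean, Jun and Dusp1 gave 0.58 and Fos and Ier2 0.25, and Egr1 became positive with Jun (0.62) and Dusp1 (0.67). Without BMDM saringosterol replicate 3, an alternative chosen after seeing the data, these values centred on groups were 0.38 for Jun and Dusp1, 0.45 for Egr1 and Jun and 0.34 for Egr1 and Dusp1, while Jun and Dusp1 centred on cell type gave 0.92 and Egr1 and Dusp1 -0.61. The points share a cell type, a medium and a scaling, and no test was made.

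**Figure D4:**
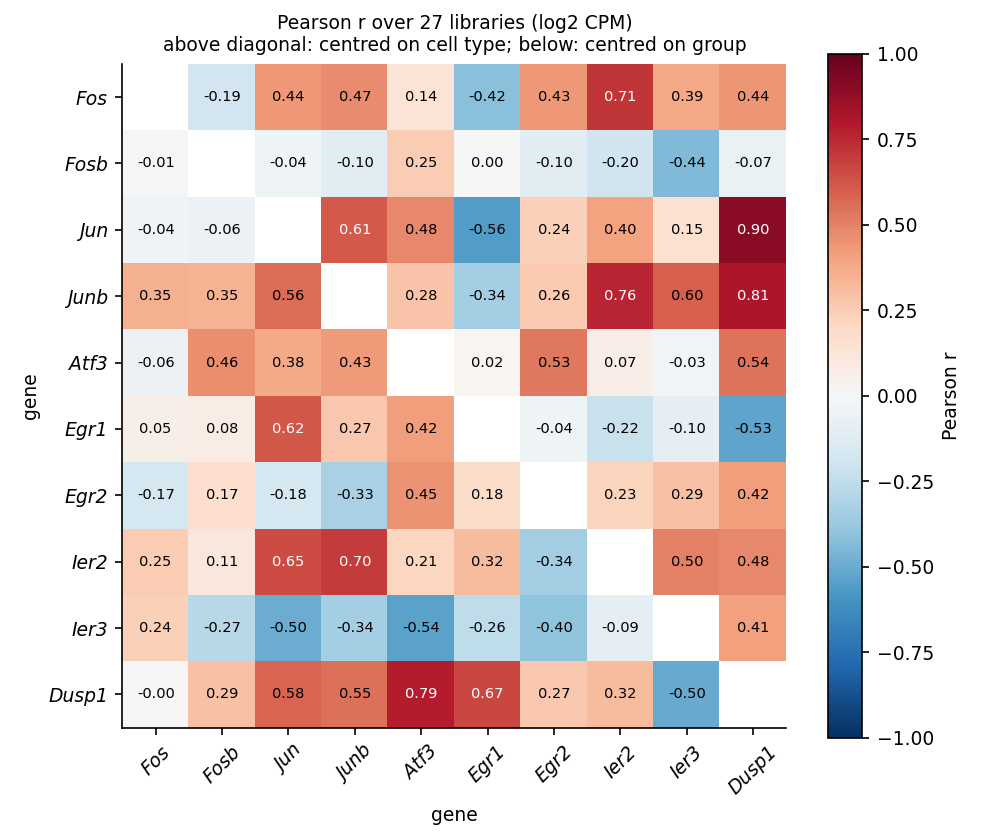
Pearson r between members over 27 libraries (log2 CPM; above the diagonal centred on cell type, below it centred on group; red positive, blue negative). Jun and Dusp1 reach 0.90 above the diagonal and 0.58 below it, and the blue cells of Egr1 with Jun and Dusp1 above the diagonal are red below it.

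Among 13386 genes tested in all cell types, those most like Fos by the same measure were Stom (r = 0.89), a membrane scaffold protein, Glrx (0.88), a glutaredoxin, and Spop (0.87), a ubiquitin ligase adaptor. Stom was at 282 ± 10.4, 234 ± 5.44 and 228 ± 3.31 CPM in microglia in the order vehicle, saringosterol and GW, and stood at 265 ± 7.70, 238 ± 18 and 211 ± 11.2 CPM in BMDM. Those most like Egr1 were Hmox1 (0.85), the haem oxygenase, Ephx1 (0.79), an epoxide hydrolase, and Gsto1 (0.78), a glutathione transferase; without BMDM saringosterol replicate 3 these were 0.81, 0.69 and 0.70. Hmox1 was at 696 ± 18.7, 883 ± 14.9 and 1049.6 ± 51.7 CPM in microglia and Ephx1 at 85.2 ± 0.251, 103 ± 2.12 and 145 ± 3.56 CPM in the same order. In BMDM Hmox1 was at 742 ± 71.3, 748 ± 179.8 and 1069.6 ± 94.9 CPM. In hepatocytes Stom was at 199, 198 and 179 CPM and Hmox1 at 124, 134 and 111 CPM. Glrx (78.3, 80.7 and 79.3 CPM) and Ephx1 (414, 432 and 417 CPM) changed little there. The likeness was not computed for each cell type on its own.

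Other primary response genes, a list of 20 genes that growth factors and stress also induce, were called in both directions. The shares of all genes called, to set beside the counts of this and the following lists, were 10.8% with saringosterol (4.19% higher, 6.66% lower) and 28.7% with GW (13.4% higher, 15.2% lower) in microglia, 10.7% (5.53% higher, 5.12% lower) and 10.4% (5.66% higher, 4.76% lower) in BMDM, and 1.91% and 1.11% in hepatocytes. With GW in microglia 11 of 19 tested were lower and 3 higher (median log2 -0.38, beside -0.01 over all genes), and with saringosterol 6 were lower and 5 higher (median -0.03). Gem, a small GTPase, went both ways in microglia: it stood at 2.23 ± 0.23 CPM under vehicle, 4.93 ± 0.41 with saringosterol (log2 1.14 ± 0.20, edgeR adjusted p = 0.00011) and 0.386 ± 0.15 with GW (-2.53 ± 0.26, 4.6e-09). In BMDM 5 of 20 were higher and 3 lower with saringosterol (5 and 6 without replicate 3), Gem again most (1.79 ± 0.34, adjusted p = 0.0018), and with GW 2 were higher and 4 lower, where Klf2, a Krüppel-like factor, fell from 21.3 ± 1.5 to 12.3 ± 0.80 CPM (-0.80 ± 0.11, 5e-05). In hepatocytes none of 19 was called with saringosterol and 1 with GW, the polo-like kinase Plk2 (0.20 ± 0.05, 0.027).

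**Figure D5:**
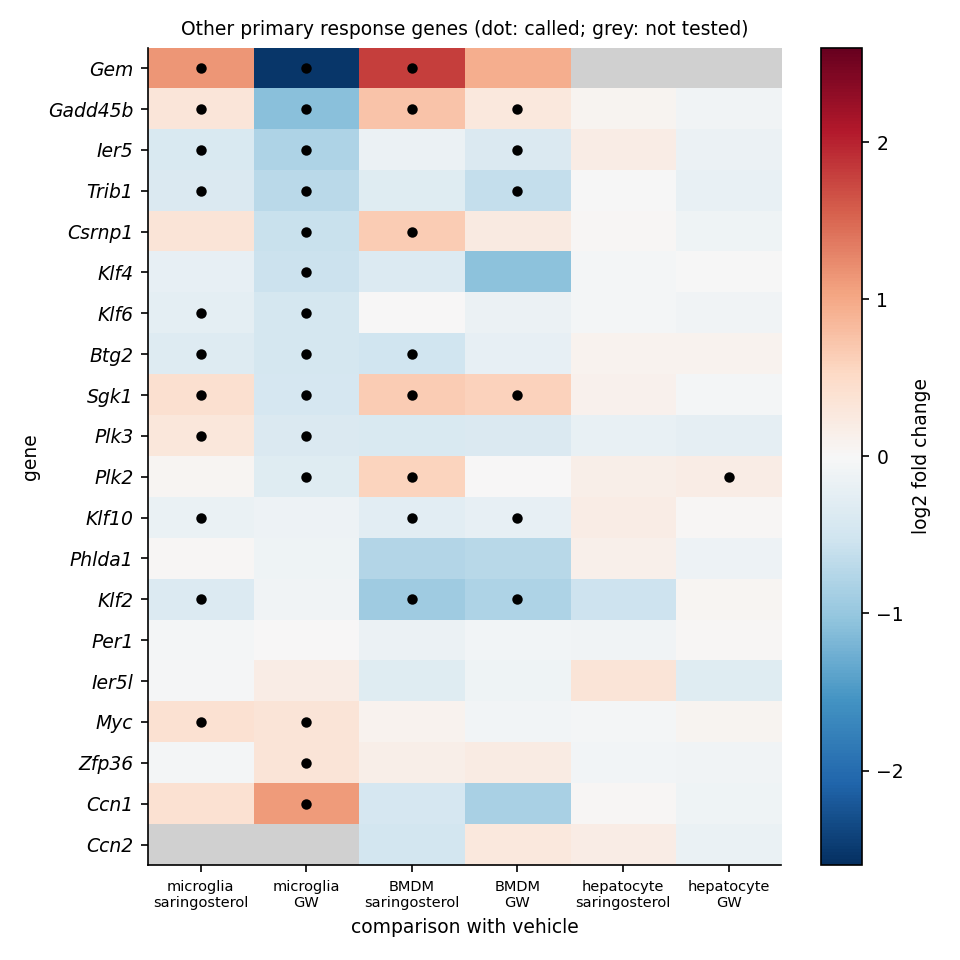
Log2 fold changes of 20 other primary response genes in the 6 comparisons with vehicle (columns: cell type and treatment; rows: genes ordered by the change with GW in microglia; dots: called; grey: not tested). Gem is higher with saringosterol and lower with GW in microglia, and the hepatocyte columns hold 1 dot, at Plk2 with GW.

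The other MAP kinase phosphatases went both ways. Dusp6, which acts on ERK, rose with saringosterol in microglia from 128 ± 4.0 to 186 ± 5.0 CPM (log2 0.54 ± 0.04, edgeR adjusted p = 5e-11) and with GW in BMDM from 39.1 ± 2.7 to 81.6 ± 4.8 CPM (1.06 ± 0.09, 2.1e-07). Of 9 tested in microglia, 2 were higher with saringosterol (4.19% of all genes) and 3 higher and 3 lower with GW (28.7% of all genes called), where Dusp10, which acts on p38 and JNK, fell by 1.11 ± 0.17 (5.4e-06). In BMDM 2 were higher and 1 lower with saringosterol, Dusp10 among them (0.72 ± 0.21, 0.031; without saringosterol replicate 3 1 was higher and 1 lower, and Dusp10 did not pass, 0.60, 0.1), and 2 were higher with GW. In hepatocytes Dusp5 was the 1 called, lower with GW (-0.35 ± 0.06, 0.00039).

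Relatives of the members within AP-1 were called in both directions in microglia and BMDM. Of 9 tested in microglia 1 was higher and 1 lower with each compound, where 10.8% (saringosterol) and 28.7% (GW) of all genes were called. The GW count was thus not above the share of all genes. These calls were led by the small Maf protein gene Maff with saringosterol (log2 0.71 ± 0.19, edgeR adjusted p = 0.011) and the JUN partner Jdp2 with GW (0.63 ± 0.10, 9.4e-06). Of 8 in BMDM, 2 were higher and 2 lower with saringosterol, where 10.7% of all genes were called, led by Batf3 (-0.57 ± 0.12, 0.0043). Without saringosterol replicate 3, 2 of 9 were higher and 2 lower, with Batf3 at -0.48 (adjusted p = 0.01). With GW 1 was higher and 1 lower, where 10.4% of all genes were called, led by Jdp2 (0.67 ± 0.12, 0.0015). None of 7 was called in hepatocytes. Of the EGR co-repressors and NR4A relatives, 5 in microglia, 2 were higher and 1 lower with GW, the orphan receptor gene Nr4a1 by -0.65 ± 0.25 (0.049), and none was called with saringosterol, in BMDM or in hepatocytes.

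Upstream of the members, 5 of 8 SRF, ternary complex and CREB regulators were called with GW in microglia, 3 higher and 2 lower, where 28.7% of all genes were called, led by Elk1 (0.41 ± 0.08, edgeR adjusted p = 0.00023). With saringosterol 1 of them was lower there, the SRF co-activator Mrtfa (log2 -0.26 ± 0.06, edgeR adjusted p = 0.0055); none was called in BMDM or hepatocytes. Of 11 ERK pathway genes in microglia, Mapk3 (ERK1) was lower with saringosterol (-0.20 ± 0.05, 0.003) and the feedback inhibitor Spry1 higher with GW (0.61 ± 0.22, 0.041). Of 10 in BMDM, Mapk3 was lower with saringosterol (-0.33 ± 0.08, 0.011) and 2 were lower with GW, led by Spry2 (-0.997 ± 0.31, 0.047). Without saringosterol replicate 3 the Mapk3 difference was -0.24 (adjusted p = 0.011). None of 10 was called in hepatocytes.

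Atf3 belongs also to the integrated stress response, and 6 partners in that pathway split by cell type. In microglia 4 were lower with saringosterol and 4 with GW, none higher, where 6.66% and 15.2% of all genes were lower; Trib3, a pseudokinase, fell from 50.6 ± 2.3 to 34.6 ± 3.5 and 23.2 ± 1.6 CPM (log2 -0.55 ± 0.07, edgeR adjusted p = 1.2e-06, and -1.12 ± 0.07, 1.8e-13). In BMDM 4 were higher with saringosterol and none lower, where 5.53% of all genes were higher, led by the asparagine synthetase Asns (1.11 ± 0.21, 0.019), and 1 with GW, the factor Atf4 (0.35 ± 0.07, 0.0026). Without saringosterol replicate 3 there were also 4 higher and none lower, with Asns at 0.81 ± 0.10 (adjusted p = 8.9e-07). In hepatocytes 1 was higher with GW, Ddit3 (0.35 ± 0.07, 0.0044). Of 8 heat shock genes in microglia, 3 were higher with saringosterol, beside 4.19% of all genes (Hspd1 0.24 ± 0.04, 6e-05), and 3 were higher and 2 lower with GW, beside 13.4% and 15.2% (Hspa1b -0.92 ± 0.07, 1.1e-11). In BMDM 3 of 8 were higher with each compound, beside 5.53% and 5.66% of all genes (Hspa1a 0.90 ± 0.16, 0.0015, and 1.48 ± 0.16, 6.5e-06), and in hepatocytes none of 9 was called. Without BMDM saringosterol replicate 3, 3 of 9 were higher with saringosterol in BMDM, with Hspa1a at 1.07 (adjusted p = 4.3e-06).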

How the data were processed

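Libraries were made from total RNA by oligo-dT priming (SMARTer Ultra Low), per the labels' protocols. Reads were aligned with STAR 2.5.1a to GRCm38 and counted with featureCounts 1.4.6-p5, per the submitters' processing notes; the annotation and strand setting were not given in the sources used here. For every gene the authors deposited a read count, CPM, FPKM and TPM. Checked against the counts, the deposited CPM and FPKM use the total over genes, and the deposited TPM was taken as the level per length. Of 55774 lines, 55487 identifiers were kept, repeats holding the same values.

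Each cell type's 9 libraries were fitted with edgeR 4.0.16 in R 4.3.3: filterByExpr, TMM scaling, robust quasi-likelihood F test, Benjamini-Hochberg adjustment over all genes tested, called at an adjusted p under 0.05. Differences between cell types came from 1 fit of all 27 libraries. Printed CPM values use the TMM-scaled totals of the cell type, and marker values plain totals; SD is over 3 libraries and SE of a log2 fold change comes from the F statistic and its 95% interval from the t quantile of that test. Code was tested on simulated data. Alternatives were DESeq2 1.42.0, RLE scaling, no filter, a replicate block, 1 fit of all libraries and leaving out each library; leaving out BMDM saringosterol replicate 3 for the likeness values and pathway lists was added after seeing the data.

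The members and lists were chosen with earlier results of these data known. Named are all members and the called gene of each pathway list with the largest change in a comparison with vehicle. The 3 genes most like Fos and Egr1 over 27 libraries are also named. Marker genes, and values of Stom, Glrx, Hmox1 and Ephx1, stand beside the results they touch.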

Additional observations from a re-analysis of the deposited data

Results flagged for a closer look

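The response to a compound differed between cell types, by the test of the difference over all 27 libraries, in 21 cases. Values are log2 differences of the responses, first cell type minus the second. The shares of all genes called, in the order given below, were 2.01%, 1.18% and 10.1% for saringosterol and 9.71%, 8.69% and 4.74% for GW. For saringosterol, microglia against BMDM gave -0.40 for Jun, 0.59 for Egr1 and -0.92 for Dusp1; the Egr1 call ended without BMDM vehicle replicate 1 (0.49, adjusted p = 0.064). Microglia against hepatocytes gave -0.59 for Fos. BMDM against hepatocytes gave 0.37 for Jun, 0.62 for Dusp1, -0.33 for Fos, -0.38 for Egr1 and -0.50 for Ier3. In that last comparison the Fos call ended without BMDM saringosterol replicate 2 (-0.28), hepatocyte saringosterol replicate 1 (-0.30), BMDM vehicle replicate 1 (-0.32) or hepatocyte vehicle replicate 2 (-0.25). The Egr1 call ended without BMDM saringosterol replicate 2 (-0.41) or 3 (-0.23), hepatocyte saringosterol replicate 1 (-0.40), 2 (-0.37) or 3 (-0.37), BMDM vehicle replicate 1 (-0.28) or hepatocyte vehicle replicate 2 (-0.36) or 3 (-0.37). The Ier3 call ended without BMDM saringosterol replicate 1 (-0.44) or 2 (-0.38), BMDM vehicle replicate 1 (-0.32) or any 1 of 6 hepatocyte libraries (-0.53 to -0.47).

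For GW, microglia against BMDM gave -0.36 for Jun, -0.54 for Junb, -0.76 for Ier3 and -1.47 for Dusp1. Microglia against hepatocytes gave -0.38 for Fos, -0.32 for Jun, -0.40 for Junb, 0.80 for Egr1, -0.57 for Ier3 and -1.42 for Dusp1. The Fos call ended without hepatocyte vehicle replicate 2 (-0.30, adjusted p = 0.051), and the Ier3 call without hepatocyte GW replicate 1 (-0.53), microglia GW replicate 1 (-0.48) or microglia vehicle replicate 3 (-0.55). BMDM against hepatocytes gave -0.56 for Fos and 0.55 for Egr1. These contrasts share vehicle libraries within a cell type, and hepatocytes had another medium.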

How the results depend on the processing

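No fold change of a called member changed direction under the alternatives. Over all members, comparisons and alternatives, 84 of 2241 fold changes lost their call, 17 gained one and 2140 stayed on their side; 86 changed sign while called in neither. DESeq2 ended no call of a member. The fit of all 27 libraries ended 9: Egr2 and Junb (saringosterol) and Atf3 (GW) in microglia, Egr1 and Atf3 between the treatments there, Egr1 and Ier3 (GW) and Atf3 (saringosterol) in hepatocytes, and Ier3 between the treatments there. In 1 fit of all 27 libraries the members called with saringosterol were 3 in microglia and 0 in hepatocytes, and with GW 2 in BMDM and 0 in hepatocytes; genes called were 690, 57, 2442 and 88 in the same order, 2471 with saringosterol in BMDM and 146 between the treatments in hepatocytes. With DESeq2, 2 members and 554 genes were called with saringosterol in hepatocytes. Genes that differed in response by DESeq2 were 1067 (saringosterol, microglia against BMDM), 555 (microglia against hepatocytes) and 2911 (BMDM against hepatocytes), and 1518 with GW (BMDM against hepatocytes). Without a filter 491 genes were called with saringosterol in hepatocytes and 700 differed in the saringosterol response of microglia and BMDM. RLE scaling left 3 members in the saringosterol response of BMDM against hepatocytes. The labels do not say whether replicate numbers pair libraries. Deviations of same-numbered libraries correlated at -0.15 to 0.11 and those of different numbers at -0.13 to 0.12. In hepatocytes these ranges were -0.03 to 0.11 and -0.08 to 0.04, and pairing was not settled by them. With the replicate block 2 members and 782 genes were called with saringosterol, 286 genes with GW and 544 between the treatments in hepatocytes, and 3 members between vehicle microglia and BMDM, where Dusp1 was lost (0.24, adjusted p = 0.12). Leaving out single libraries gave 1 to 5 members with saringosterol in BMDM, 2 to 6 between the treatments there, 0 to 1 with saringosterol and 1 to 2 with GW in hepatocytes, and 2 to 5 for the saringosterol response of BMDM against hepatocytes. Genes called ranged over 846 to 1754 (saringosterol, BMDM), 896 to 1696 (GW, BMDM), 887 to 1475 (between treatments, BMDM), 86 to 803 (saringosterol, hepatocytes), 188 to 294 (between treatments, hepatocytes), and for the saringosterol response 161 to 681 (microglia against BMDM), 131 to 269 (microglia against hepatocytes) and 1220 to 2381 (BMDM against hepatocytes). The cause of these changes was not tested, beyond the fewer libraries left. Depth limits Fosb in microglia and BMDM and Egr2 in hepatocytes.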
